A study of Mus musculus with 8 samples.

Results

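The p53 target genes described here are *Cdkn1a*, *Mdm2*, *Ccng1*, *Phlda3*, *Eda2r*, *Trp53inp1*, *Bax*, *Sesn2*, *Zmat3* and *Bbc3*, 10 genes picked by symbol from the 33971 genes of the deposited count table. All 10 were found, and all 10 were among the 19367 genes left by the filter on low counts. The table holds polyadenylated RNA from whole brains of WT mouse embryos at E14.5. There were 4 brains from WT dams fed a choline-deficient diet (CDD) and 4 from WT dams fed normal chow (ND), all dams having been mated with WT males. The study's methods start the diets on the day of mating, whereas a table legend of the study places the start before mating. Neither group carried a deletion or transgene, and the number of dams and litters behind each set of 4 brains is not stated, so brains of one diet may be littermates. The comparison asked how each gene differed between CDD and ND brains, and it concerns bulk tissue, in which fewer cells of a type and less RNA per cell cannot be told apart.

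p53, the protein of *Trp53*, is a transcription factor that is kept scarce by the ubiquitin ligase Mdm2 and its partner Mdm4, and that accumulates after DNA damage and other stress. Its targets slow the cell cycle, start the mitochondrial pathway of apoptosis, curb growth signaling or feed back on p53 itself. In the embryonic brain, dividing neural progenitors are known for their sensitivity to p53, and its activation there leads to loss of progenitors and a small brain.

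The total count per library was 32706627 to 43121170 reads for CDD and 31770217 to 34399295 for ND brains, of which 11446 to 16327 reads fell on the 10 genes. Neuronal marker genes (*Tubb3*, *Dcx*, *Stmn2*, *Map2*) summed to 5262 to 5936 CPM (the read count scaled to the size of the library) in CDD and 5339 to 5519 CPM in ND brains, while liver, muscle and skin markers together stayed between 0.578 and 1.27 CPM in all 8 brains. CDD replicate 2 stood apart by caudal *Hox* genes, at 68.2 CPM summed over 4 genes against 0 to 0.0302 CPM in the other brains, and ND replicate 3 by a sum of adult-type red cell genes of 2940 CPM against 627 to 1576 CPM elsewhere. *Xist*, the RNA of the inactive X chromosome, was high in CDD replicates 2 and 4 and in ND replicate 4, so the diets did not hold the same mix of sexes.

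Sequence upstream of the start sites shows where letters of the p53 binding motif occur. RefSeq promoter windows (build GRCm38.p6) were at hand for 8 of the 10 genes, in 11 windows, and *Trp53inp1* and *Zmat3* had none. The p53 half-site, a motif of 10 bases, was searched on both strands over the whole of each window, with exact matches only. Of a window, the 250 bases before the start are printed below. It was found in 4 of the 11 windows, those of *Cdkn1a*, *Mdm2*, *Ccng1* and *Bax*, against 8.36% of 32851 windows of the whole reference table, and *Cdkn1a* alone among the members held 2 matches. Those 4 windows are shown because they are the ones with a match, 5′ to 3′ toward the start, with the matching bases in capitals.
Cdkn1a, chr17:29090729-29090978, plus strand: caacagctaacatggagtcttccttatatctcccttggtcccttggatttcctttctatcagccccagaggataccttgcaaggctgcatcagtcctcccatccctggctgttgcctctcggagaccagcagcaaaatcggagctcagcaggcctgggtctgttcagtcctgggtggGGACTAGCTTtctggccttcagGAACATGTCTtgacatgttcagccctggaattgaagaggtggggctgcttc
Mdm2, chr10:117710759-117711008, minus strand: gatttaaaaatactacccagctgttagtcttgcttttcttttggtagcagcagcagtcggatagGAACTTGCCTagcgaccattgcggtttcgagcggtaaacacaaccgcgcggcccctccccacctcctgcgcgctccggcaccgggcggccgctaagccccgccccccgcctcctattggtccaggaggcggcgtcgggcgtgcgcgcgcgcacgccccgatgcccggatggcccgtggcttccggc
Ccng1, chr11:40755287-40755536, minus strand: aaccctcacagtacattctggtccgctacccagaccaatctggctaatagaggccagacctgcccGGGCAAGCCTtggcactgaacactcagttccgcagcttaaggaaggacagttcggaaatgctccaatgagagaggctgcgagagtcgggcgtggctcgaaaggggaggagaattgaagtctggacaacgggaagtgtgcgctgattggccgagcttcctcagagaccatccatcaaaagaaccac
Bax, chr7:45466899-45467148, minus strand: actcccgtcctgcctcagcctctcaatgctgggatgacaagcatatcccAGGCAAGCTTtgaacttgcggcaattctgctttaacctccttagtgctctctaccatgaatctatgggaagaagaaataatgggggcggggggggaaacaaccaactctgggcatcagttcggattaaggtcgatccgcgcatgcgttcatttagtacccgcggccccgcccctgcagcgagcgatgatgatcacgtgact
The matches in *Cdkn1a* began at positions -73 and -51 from its upstream start and made up a full site, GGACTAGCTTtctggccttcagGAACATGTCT, of 32 bases with 12 bases between the half-sites. A full site, defined here as a pair of exact half-sites with a spacer of 0 to 13 bases, occurred in 24 windows of the table (0.0731%). Directly after the second match in *Cdkn1a*, the bases tgacatgttc miss the motif only at their first base, and exact matching did not count them. Near matches were not searched in any window, and which of these bases p53 binds was not tested. The match began at -186 in *Mdm2*, at -185 in *Ccng1* and at -201 in *Bax*. The windows of *Phlda3*, *Eda2r*, *Sesn2* and *Bbc3* held no exact match. A match is a string of letters in these windows and was not tested for binding, and the windows leave out introns and distant elements. The 4 genes with a match included 1 that was called higher in CDD brains (*Ccng1*) and 3 that were not called.

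The targets were called in both directions. Of the 10 genes, *Ccng1*, *Trp53inp1* and *Zmat3* rose in CDD brains, *Phlda3* and *Bbc3* fell, and *Cdkn1a*, *Eda2r*, *Mdm2*, *Bax* and *Sesn2* did not pass an adjusted p-value of 0.05 in edgeR's quasi-likelihood test over all genes tested. This is 5 of 10 genes, beside 8.83% of all genes tested, with 3 of 10 higher beside 4.24% and 2 of 10 lower beside 4.59%. This split changed when single brains were left out and with an offset for GC content. Without ND replicate 3 or ND replicate 4, 0 of the 10 were called in either direction. It was 1 lower without CDD replicate 1 and 1 higher without ND replicate 1. Without CDD replicate 2 or ND replicate 2 it was 1 in each direction. Without CDD replicate 3 it was 4 higher and 3 lower. Without CDD replicate 4 it was 3 higher and 1 lower, and with the offset for GC content 3 higher and 0 lower. The calls over all genes moved as well, from 822 higher and 888 lower with all brains. They were 204 and 267 without ND replicate 3, 278 and 337 without ND replicate 4, and 299 and 389 without ND replicate 1. They were 616 and 592 without CDD replicate 1, 619 and 784 without CDD replicate 2, and 659 and 793 without ND replicate 2. They were 1222 and 1273 without CDD replicate 3, and 679 and 835 without CDD replicate 4. At an unadjusted p-value under 0.05 in the edgeR test with all brains there were 7 of the 10, beside 23.9% of all genes. In 5 of the 10 the CDD and ND brains did not overlap in CPM, beside 15% of all genes. *Cdkn1a*, *Eda2r*, *Ccng1* and *Zmat3* were above, 4 of 10 beside 7.65%, and *Phlda3* was below, 1 of 10 beside 7.39%. DESeq2 called the same 5 genes in the same directions, beside 13.9% of the genes to which it gave an adjusted p-value. The median log2 fold change of CDD over ND was 0.12 for the 10 genes and -0.0038 for all genes. The changes were modest, from a fall of 24.9% for *Phlda3* to a difference of 49.8% for *Cdkn1a*, which was not called. *Trp53* itself averaged 76.3 ± 3.62 CPM under CDD and 75.1 ± 2.82 CPM under ND (SD, n = 4 each), a log2 fold change of 0.02 with a 95% confidence interval from -0.07 to 0.12 (adjusted p = 0.817, edgeR).

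**Figure D1:**
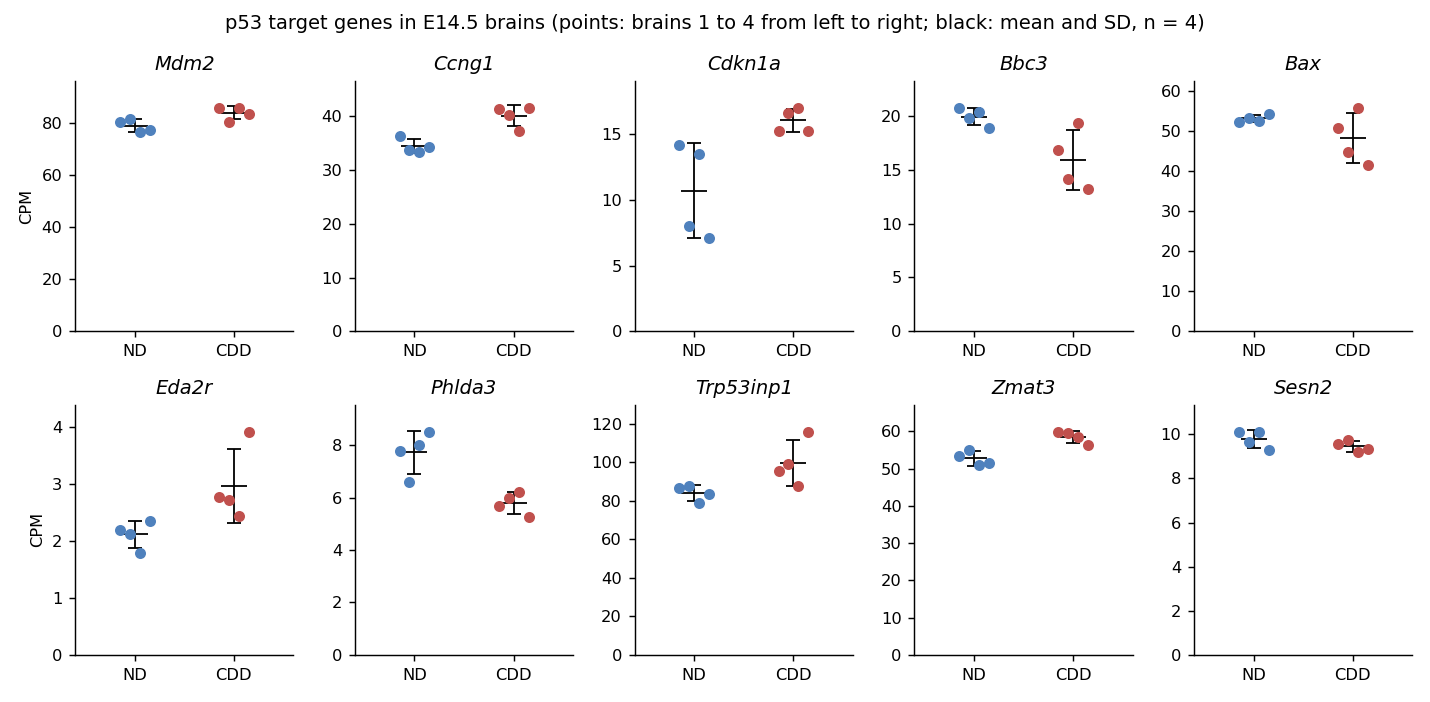
CPM of the 10 p53 target genes (vertical axes, each from 0) in ND (blue) and CDD (red) brains, with each point a brain and the black marks the mean and SD of 4 brains. The diets are apart in *Ccng1*, *Cdkn1a*, *Eda2r*, *Zmat3* and *Phlda3* and overlap in the other 5 genes.

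**Figure D2:**
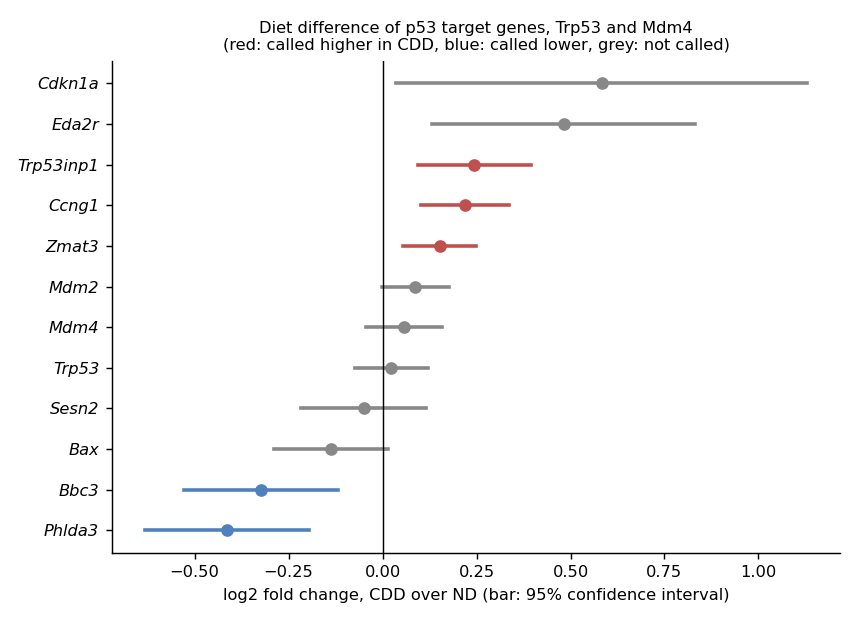
Log2 fold change of CDD over ND (points) with its 95% confidence interval (bars) from edgeR's test for the 10 targets, *Trp53* and *Mdm4*, colored by the call. The values run from -0.41 for *Phlda3* to 0.58 for *Cdkn1a*, whose interval is the widest.

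Among the feedback genes, *Ccng1* rose and *Mdm2* was not called. *Mdm2* (ENSMUSG00000020184; chromosome 10, 117524780 to 117546663 in the coordinates of the files, whose build is not named) encodes the ligase that marks p53 for degradation. Its CPM was 85.7, 80.4, 85.6 and 83.4 in CDD replicates 1 to 4 and 80.3, 81.5, 76.4 and 77.3 in ND replicates 1 to 4. CDD replicate 2 lay among the ND brains, and the other 3 CDD brains lay above all ND brains. The resulting log2 fold change was 0.09 with a 95% confidence interval from -0.0021 to 0.18 (adjusted p = 0.222, edgeR). *Mdm4*, the partner of Mdm2, averaged 243 ± 16.3 CPM under CDD and 233 ± 3.30 CPM under ND (SD, n = 4 each), a log2 fold change of 0.06 with a 95% confidence interval from -0.04 to 0.16 (adjusted p = 0.511, edgeR).

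*Ccng1* (ENSMUSG00000020326; chromosome 11, 40639379 to 40646138), which encodes cyclin G1, a protein that recruits a phosphatase to Mdm2 and so feeds back on p53, had CPM values of 41.3, 40.3, 37.4 and 41.6 in CDD replicates 1 to 4 and 36.4, 33.8, 33.4 and 34.4 in ND replicates 1 to 4. All CDD brains lay above all ND brains, with CDD replicate 3 the closest to them. The log2 fold change was 0.22 (SE 0.056, adjusted p = 0.0210 in edgeR's test), a rise of 16.4%. Leaving out CDD replicate 1 or ND replicate 2, 3 or 4 ended the call at log2 fold changes of 0.20 to 0.22 (adjusted p between 0.0514 and 0.0982, edgeR).

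*Cdkn1a* (ENSMUSG00000023067; chromosome 17, 29309950 to 29319701) encodes p21, the inhibitor of cyclin-dependent kinases through which p53 halts the cell cycle. Its CPM was 15.3, 16.6, 17.0 and 15.3 in CDD replicates 1 to 4, and 14.2, 8.03, 13.5 and 7.13 in ND replicates 1 to 4. The CDD brains were close together and all above the ND brains, whereas the ND brains were spread over a range from 7.13 to 14.2 CPM, with replicates 1 and 3 near the CDD brains and replicates 2 and 4 far below. The means were 16.0 ± 0.908 CPM (SD, n = 4) and 10.7 ± 3.64 CPM (SD, n = 4). This gave a log2 fold change of 0.58, the largest in size of the 10 genes, with a 95% confidence interval from 0.04 to 1.13 (adjusted p = 0.183, edgeR). *Cdkn1a* and *Eda2r* were the genes past the unadjusted but not the adjusted threshold. It ranged from 0.43 without ND replicate 4 to 0.75 without ND replicate 1, and 0 of the 20 alternative analyses called it. Reads of an antisense gene that overlaps *Cdkn1a*, *1700023B13Rik*, numbered 3 to 19 per brain beside 246 to 732 for *Cdkn1a*, and the strand setting of the counting is not given in the sources used here.

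Of the apoptosis genes, *Bbc3* fell, and *Bax* and *Eda2r* were not called. *Bbc3* (ENSMUSG00000002083; chromosome 7, 16042318 to 16052130) encodes Puma, a BH3-only protein that unleashes Bax at mitochondria. Its CPM was 16.8, 14.1, 19.4 and 13.2 in CDD replicates 1 to 4 and 20.7, 19.8, 20.3 and 18.9 in ND replicates 1 to 4. CDD replicate 3 lay within the range of the ND brains, and the other 3 CDD brains lay below all of them. This was a log2 fold change of -0.32 (SE 0.097, adjusted p = 0.0473 in edgeR's test). Without CDD replicate 3 it was -0.44 (adjusted p = 0.00239, edgeR), and leaving out any other single brain ended the call at -0.25 to -0.35 (adjusted p between 0.0676 and 0.135, edgeR).

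*Bax* (ENSMUSG00000003873; chromosome 7, 45111121 to 45116322), the pore-forming effector of the same pathway, had 50.8, 44.7, 55.7 and 41.5 CPM in CDD replicates 1 to 4 and 52.2, 53.2, 52.5 and 54.3 CPM in ND replicates 1 to 4. The ND brains were tightly grouped, while CDD replicate 3 lay above all of them and the other 3 CDD brains below. Its log2 fold change was -0.14, with a 95% confidence interval from -0.29 to 0.01 (adjusted p = 0.256, edgeR). Without CDD replicate 3 the gene was called lower at -0.22 (adjusted p = 0.0231, edgeR).

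*Eda2r* (ENSMUSG00000034457; chromosome X, 96377446 to 96420822), a receptor of the tumor necrosis factor receptor family for ectodysplasin A2, was the scarcest of the 10. It had 92, 94, 105 and 130 counts in CDD replicates 1 to 4 and 75, 68, 62 and 81 counts in ND replicates 1 to 4, which is 2.78, 2.72, 2.44 and 3.92 CPM against 2.19, 2.13, 1.79 and 2.35 CPM. All CDD brains lay above all ND brains, CDD replicate 3 by the smallest margin and CDD replicate 4 by the largest. Together this was a log2 fold change of 0.48 with a 95% confidence interval from 0.13 to 0.83 (adjusted p = 0.0781, edgeR). It became 0.57 and was called without CDD replicate 3 (adjusted p = 0.0373, edgeR), and was 0.32 without CDD replicate 4 (adjusted p = 0.268, edgeR). The gene is on the X chromosome, and with *Xist* as a covariate the log2 fold change was 0.41 (adjusted p = 0.116, edgeR).

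Among the targets that act on signaling and RNA, *Phlda3* fell while *Trp53inp1* and *Zmat3* rose. *Phlda3* (ENSMUSG00000041801; chromosome 1, 135693857 to 135696874) encodes a pleckstrin homology protein that competes with the survival kinase Akt for membrane lipids. It had 5.68, 6.0, 6.23 and 5.28 CPM in CDD replicates 1 to 4 and 7.78, 6.6, 8.01 and 8.52 CPM in ND replicates 1 to 4. All CDD brains lay below all ND brains, and ND replicate 2 was the closest to them. *Phlda3* had a log2 fold change of -0.41 (SE 0.104, adjusted p = 0.0191 in edgeR's test), the lowest adjusted p-value of the 10. Leaving out ND replicate 1, 3 or 4 ended the call at -0.36 to -0.41 (adjusted p between 0.0608 and 0.0864, edgeR).

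*Trp53inp1* (ENSMUSG00000028211; chromosome 4, 11156431 to 11174379), a nuclear stress protein that aids phosphorylation of p53 and acts in autophagy, had 95.6, 99.3, 87.9 and 116 CPM in CDD replicates 1 to 4 and 86.4, 88.0, 78.8 and 83.4 CPM in ND replicates 1 to 4. CDD replicate 4 was the highest, and CDD replicate 3 lay just under ND replicate 2. In edgeR's test its log2 fold change was 0.24 (SE 0.070, adjusted p = 0.0445). It was 0.30 without CDD replicate 3 and 0.16 without CDD replicate 4, and the gene was called both times (adjusted p = 0.00510 and 0.0347, edgeR). Leaving out CDD replicate 1 or 2 or any ND brain ended the call at 0.21 to 0.27 (adjusted p between 0.0592 and 0.151, edgeR).

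*Zmat3* (ENSMUSG00000027663; chromosome 3, 32388941 to 32420163) encodes a zinc finger protein that binds RNA and affects splicing and RNA stability. Its CPM was 59.9, 59.4, 58.5 and 56.3 in CDD replicates 1 to 4 and 53.4, 55.1, 50.9 and 51.5 in ND replicates 1 to 4. All CDD brains lay above all ND brains, with CDD replicate 4 closest to ND replicate 2. The log2 fold change was 0.15 (SE 0.047, adjusted p = 0.0494 in edgeR's test), a rise of 11.1% that lies just under the threshold. It stayed between 0.14 and 0.17 without each brain in turn, and leaving out CDD replicate 1 or 2 or ND replicate 1, 3 or 4 ended the call (adjusted p between 0.0935 and 0.180, edgeR).

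*Sesn2* (ENSMUSG00000028893; chromosome 4, 132219343 to 132237812), a stress protein that restrains mTORC1 and so growth when leucine is short, had 9.57, 9.74, 9.20 and 9.32 CPM in CDD replicates 1 to 4 and 10.1, 9.63, 10.1 and 9.28 CPM in ND replicates 1 to 4. The ranges overlapped in part, with ND replicates 1 and 3 above every CDD brain and CDD replicate 3 below every ND brain. The log2 fold change was -0.05 with a 95% confidence interval from -0.22 to 0.12 (adjusted p = 0.763, edgeR), so the interval allows a change of either sign.

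Levels between the genes were compared per length, as the authors' FPKM values in ND brains. *Bax* was highest at 33.5 ± 0.582 FPKM (SD, n = 4), followed by *Mdm2* at 15.4 ± 0.495 and *Trp53inp1* at 12.9 ± 0.644 FPKM. *Ccng1* at 9.76 ± 0.386 and *Bbc3* at 9.32 ± 0.380 FPKM overlapped each other, and so did *Phlda3* at 4.93 ± 0.516 and *Zmat3* at 4.58 ± 0.173 FPKM. *Cdkn1a* at 2.99 ± 1.02 and *Sesn2* at 2.80 ± 0.117 FPKM overlapped as well, and *Eda2r* was lowest at 0.357 ± 0.0399 FPKM. Neighbors in this order other than these 3 pairs did not overlap over the 4 ND brains. The arrest gene *Cdkn1a* thus stood near the bottom of the order and the death effector *Bax* at its top.

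The brains were also set side by side over the 10 genes. After each gene was centred on its mean log2 CPM over the 8 brains, the median of the 10 genes was 0.07, 0.06, 0.04 and 0.03 in CDD replicates 1 to 4 and 0.02, -0.01, -0.01 and -0.07 in ND replicates 1 to 4. CDD replicate 4 held the highest value of 3 of the 10 genes (*Ccng1*, *Eda2r* and *Trp53inp1*) and the lowest of 3 others (*Phlda3*, *Bax* and *Bbc3*). ND replicate 3 held the lowest value of 5 genes. Among the CDD brains, replicate 3 had the lowest values of *Ccng1*, *Eda2r* and *Trp53inp1* and the highest of *Phlda3*, *Bax* and *Bbc3*. For these 6 genes it was the CDD brain nearest to the ND mean in 5, and for *Bax* it lay above every ND brain.

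**Figure D3:**
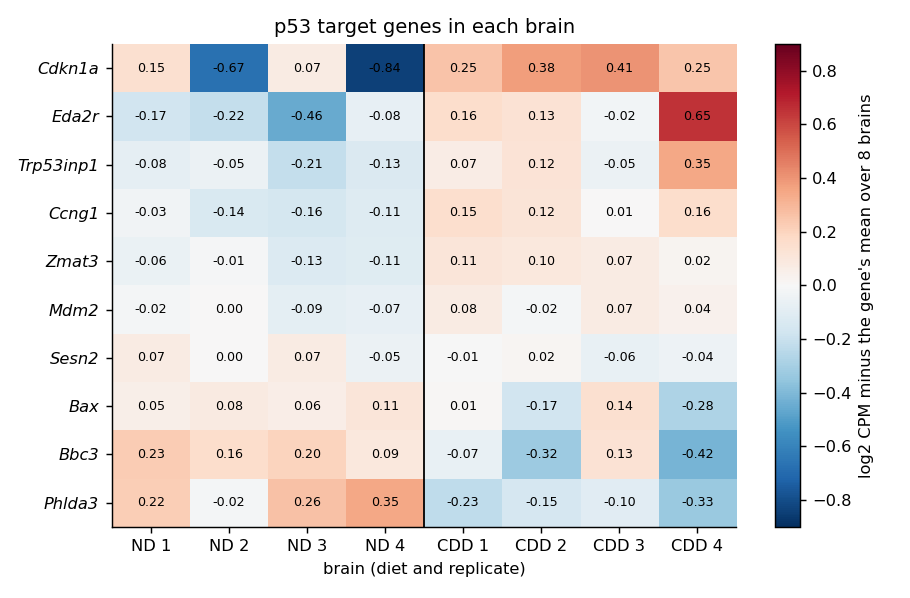
Log2 CPM of each target gene (rows) in each brain (columns) after subtracting the mean of the gene over the 8 brains, with the value written in each cell and red for above and blue for below the mean. *Cdkn1a* spans from -0.84 in ND replicate 4 to 0.41 in CDD replicate 3, and CDD replicate 4 has the deepest red of *Eda2r* (0.65) and the deepest blue of *Bbc3* (-0.42).

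The targets that were higher and those that were lower in CDD brains differed in base composition. Over the longest transcript in GENCODE M21, GC content was 38.8% for *Trp53inp1*, 40.8% for *Ccng1*, 40.9% for *Eda2r*, 46.2% for *Mdm2* and 47.6% for *Zmat3*, all with a log2 fold change above 0. It was 58.7% for *Sesn2*, 62.6% for *Phlda3*, 63.5% for *Bax* and 65.2% for *Bbc3*, all with a log2 fold change below 0, and *Cdkn1a* lay between at 54.4%. All genes tested showed a shift of the same sign, with a median log2 fold change of 0.05 in the lowest of 5 equal classes of GC content and -0.07 in the highest, where 9.33% of genes were called lower and 2.25% higher. That GC-rich class had median centred log2 CPM values of -0.03, -0.03, 0.03 and -0.10 in CDD replicates 1 to 4, against 0.02 to 0.06 in the ND brains, so CDD replicate 3 was on the side of the ND brains here too. When the trend with GC content in each brain was removed by an offset, an alternative chosen after the data were seen, *Ccng1* (0.19, adjusted p = 0.0263), *Trp53inp1* (0.21, adjusted p = 0.0269) and *Zmat3* (0.16, adjusted p = 0.0345) were still called higher in edgeR's test. *Phlda3* (-0.29, adjusted p = 0.0671) and *Bbc3* (-0.20, adjusted p = 0.147) were no longer called, *Bax* was at -0.02 (adjusted p = 0.910) and *Sesn2* changed sign to 0.05 (adjusted p = 0.779, all edgeR). *Cdkn1a* was at 0.63 (adjusted p = 0.151, edgeR) with that offset. Over all genes the offset moved the calls from 822 higher and 888 lower, 48.1% of them higher, to 1029 higher and 631 lower, 62% of them higher, and 8.77% of genes were called. Called members with the offset were thus 3 of 10, all higher. An offset for gene length left *Ccng1* (0.25), *Trp53inp1* (0.25), *Phlda3* (-0.37) and *Bbc3* (-0.28) called and ended the call of *Zmat3* (0.14, adjusted p = 0.0873, edgeR), with 10.7% of all genes called. The cause of the trend with GC content, and its part in the values of the targets, was not tested.

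**Figure D4:**
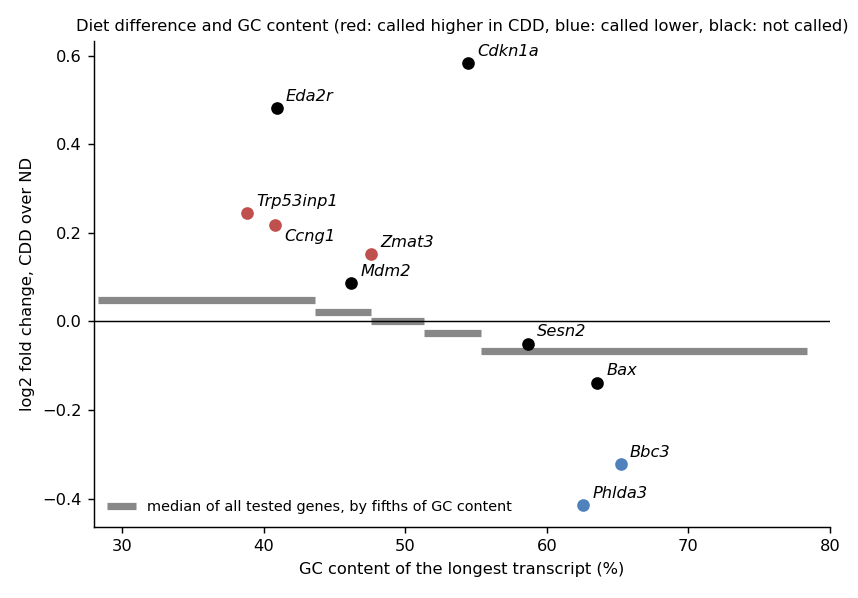
Log2 fold change of CDD over ND (vertical axis) against GC content of the longest transcript in percent (horizontal axis) for the 10 targets, with gray bars for the median of all genes tested in each of 5 classes of GC content. The 5 targets under 50% lie above 0, the 4 targets over 58% lie below 0, and the gray bars run from 0.05 down to -0.07.

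In the wider p53 pathway, 11.1% of the tested other p53 targets, 16.7% of the regulators and 11.8% of the Bcl-2 family members and caspases were called, beside 8.83% of all genes. Of 49 other p53 targets, 45 were tested, and *Btg2* was called higher and 4 genes lower, with a median log2 fold change of -0.02. *Btg2*, an antiproliferative gene also known from neuron-producing progenitors, averaged 49.6 ± 3.42 CPM under CDD and 39.0 ± 3.26 CPM under ND (SD, n = 4 each; log2 fold change 0.35, adjusted p = 0.00322, edgeR). The insulin-like growth factor binding protein gene *Igfbp3* fell the most, from 28.7 ± 1.52 CPM to 18.7 ± 2.74 CPM (SD, n = 4 each; log2 fold change -0.62, adjusted p = 0.000778, edgeR). The adenylate kinase gene *Ak1* (-0.25) and *Ddit4* (-0.24), whose product restrains mTORC1, fell as well, as did *Ninj1*. Of 20 genes that regulate p53, 18 were tested, 3 rose and 0 fell at the adjusted threshold, with a median of 0.06. They were *Topbp1* (0.25, adjusted p = 0.00317), which activates the checkpoint kinase Atr, *Cop1* (0.22, adjusted p = 0.00499), a ubiquitin ligase for p53, and *Chek1* (0.37, adjusted p = 0.0267, all edgeR), a checkpoint kinase.

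Of the Bcl-2 family members and caspases, 17 were tested, 0 were called higher and 2 lower (11.8% beside 8.83% of all genes), with a median of -0.07. The 2 were *Hrk* (-0.40, adjusted p = 0.0262), a BH3-only gene of neurons, and *Bok* (-0.22, adjusted p = 0.0342, both edgeR), a relative of *Bax*. Without CDD replicate 1, CDD replicate 4, ND replicate 3 or ND replicate 4, 0 were called lower, and without ND replicate 1 or ND replicate 2 it was 1. Over all genes, 888 were called lower with all brains. In these fits it was 592, 835, 267, 337, 389 and 793, in that order. With the GC offset 1 of the Bcl-2 family members and caspases was called higher and 1 lower.

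The list with the largest share of calls was that of 20 cell cycle genes that p53 represses through p21, of which *Chek1* is also in the list of regulators. All 20 had a log2 fold change above 0, with a median of 0.26 beside -0.0038 for all genes, and 12 of them rose and 0 fell, 60% beside the 4.24% of all genes called higher. The count was 6 without ND replicate 3, 7 without ND replicate 1, and 8 without CDD replicate 1 or ND replicate 4, while limma on the authors' FPKM gave 5. Over all genes, the number called higher fell in the same fits, from 822 to 204, 299, 616, 278 and 214 in that order. *Mcm5*, a subunit of the replicative helicase, averaged 71.2 ± 4.05 CPM under CDD and 56.9 ± 3.35 CPM under ND (SD, n = 4 each; log2 fold change 0.32, adjusted p = 0.00164, edgeR). *Ccnb1*, the mitotic cyclin B1, rose by 0.37 (adjusted p = 0.00213, edgeR) and *Top2a*, the topoisomerase of dividing cells, by 0.44 (adjusted p = 0.00287, edgeR). *Cdkn1a*, which did not pass the test, also had a log2 fold change above 0. Whether p21 acts on the listed genes in these brains was not tested. The neural progenitor markers *Sox2*, *Pax6*, *Nes*, *Hes5* and *Vim* summed to 1097 to 1250 CPM in CDD and 939 to 1027 CPM in ND brains. *Nes* (0.47), *Pax6* (0.25) and *Vim* (0.21) were called higher, 3 of 5 beside 4.24% of all genes. *Sox2* (0.09, adjusted p = 0.183) and *Hes5* (0.21, adjusted p = 0.106, both edgeR) were not called, and their diets overlapped. The part of these 5 markers in the values of the targets was not tested.

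**Figure D5:**
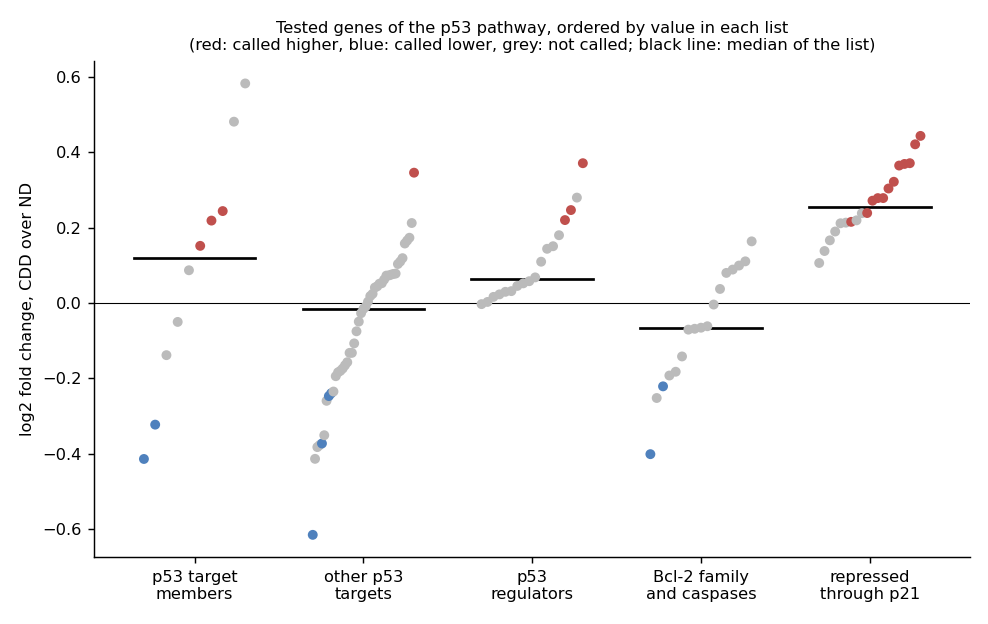
Log2 fold change of CDD over ND (vertical axis) for every tested gene of the 10 targets and of 4 further lists, ordered by value within each list, with a black line at the median. The 20 genes repressed through p21 all lie above 0 with a median of 0.26, while the 45 other p53 targets lie on both sides with a median of -0.02.

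Calls among marker genes of other cell types differed between the lists, while 8.83% of all genes tested were called. Neuron, choroid plexus and adult-type red cell markers had 0 genes called in either direction. Endothelial markers (*Cldn5*, *Pecam1*, *Cdh5*) summed to 120 to 133 CPM in CDD and 134 to 143 CPM in ND brains, with 1 of 3, *Cldn5*, called lower. *Cldn5* had a log2 fold change of -0.28, whereas *Pecam1* was at 0.09 and *Cdh5* at -0.04, both without a call and with overlapping diets. Microglia and macrophage markers (*Csf1r*, *Cx3cr1*, *P2ry12*, *Mrc1*) summed to 48.6 to 56.5 CPM in CDD and 55.9 to 63.5 CPM in ND brains, with 1 of 4, *Mrc1*, called lower, and meningeal fibroblast markers to 251 to 275 and 267 to 323 CPM, with 1 of 4 higher and 2 lower, and the sums of these last 2 lists overlapped between the diets. Embryonic globin genes summed to 114 to 222 CPM in CDD and 33.3 to 45.0 CPM in ND brains, with 2 of 3 called higher. Among the 8 brains, ND replicate 3, which held the most adult-type red cell RNA, had the lowest CPM of 5 of the 10 targets. *Phlda3* and *Bbc3* were above their mean over the 8 brains there, by 0.26 and 0.20 in log2 CPM. Leaving out ND replicate 3 ended all 5 calls among the 10 targets, as did leaving out ND replicate 4. The calls over all genes fell too, from 822 higher and 888 lower to 204 and 267, and to 278 and 337, respectively. The part of these cell types in the values of the targets was not tested.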

How the data were processed

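Whole brains of WT embryos at E14.5 from CDD and ND dams were profiled by bulk RNA sequencing, and samples were grouped by the diet in their labels, 4 per group. For every gene, the authors deposited the raw count of reads in each brain and FPKM values, which they made from counts divided by a size factor per library and from the listed gene length. The submitters' processing notes name HISAT2 2.0.5, featureCounts 1.5.0-p3 and DESeq2 1.20.0. The genome build and strand setting are not given in the sources used here. The authors' own columns of fold changes and p-values, and their shorter gene lists made from them, were not used.

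From the counts, genes were filtered with filterByExpr (19367 of 33971 left), scaled by TMM and compared with the robust quasi-likelihood test of edgeR 4.0.16, with diet as the single term and Benjamini-Hochberg adjustment over all genes tested. A gene was called, and is said to have risen or fallen, at an adjusted p-value under 0.05. CPM is the count relative to the TMM-scaled library size. FPKM values were used to order levels and, as log2(FPKM + 1), in limma 3.58.1. The sources do not say that brains came from separate litters, so p-values measure the spread between these brains. Total counts of 31770217 or more per brain give the scarcest target, *Eda2r*, at least 62 counts. No pair of brains had counts within sampling noise of each other.

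The 10 members and the other lists were chosen with earlier results of these data known. All members, *Trp53*, *Mdm4* and, per list, the 3 genes with the smallest p-values among those called higher and among those called lower are named, and *Ninj1*, the only called gene of its list outside that rule, was added after its values were seen. Lists were matched by symbol, and 18 of the 19 listed Bcl-2 family and caspase genes were found. GC content was available for 18923 of the genes tested and for all 10 members. Promoter windows came from RefSeq (GRCm38.p6). The edgeR test was checked on simulated data, in which it missed most genes given the smallest change. A gene that was not called may therefore still differ between the diets. Software was R 4.3.3 with DESeq2 1.42.0, and Python 3.11.15 with matplotlib 3.10.9, pandas 2.3.3 and NumPy 2.4.6.

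Alternatives were DESeq2, limma-voom, RLE and upper quartile normalization, dropping the low count filter, requiring 10 or more reads in all brains, a replicate block, *Xist* as a covariate, an adjusted p-value under 0.01, the authors' FPKM and each brain left out. Offsets for gene length and GC content (loess span 0.3) were added after the data were seen. The labels name no batch.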

Additional observations from a re-analysis of the deposited data

How the results depend on the processing

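The scarcest member, *Eda2r*, had 62 to 130 counts per brain and *Phlda3* 175 to 294, so counting error weighs most on these 2. Leaving out single brains gave 0 to 4 members called higher and 0 to 3 lower, with 0 in both directions without ND replicate 3 or ND replicate 4, while their median stayed between 0.10 and 0.14. Over all genes it gave 204 to 1222 higher and 267 to 1273 lower, and a median of -0.0043 to -0.0012. For the lists it gave 1 to 7 other targets lower, 2 to 4 regulators higher, 0 to 2 Bcl-2 family members and caspases lower and 6 to 15 genes repressed through p21 higher. *Trp53*, at 0.02 with all brains, ranged from -0.0064 (without CDD replicate 3) to 0.045 (without ND replicate 2), and with the GC content offset *Sesn2* turned to 0.046, both without a call.

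At an adjusted p-value under 0.01, edgeR called 211 genes higher and 266 lower, 0 members in either direction, 1 other target lower, 0 Bcl-2 family members and caspases lower and 6 genes repressed through p21 higher. Limma on the authors' FPKM called 214 genes higher and 305 lower, 1 member higher (*Ccng1*) and 1 lower (*Phlda3*), 1 other target lower, 1 regulator higher, 0 Bcl-2 family members and caspases lower and 5 genes repressed through p21 higher. The cause was not tested. DESeq2 called 5 regulators higher and the same 5 members as edgeR. The GC content offset called 0 members and 2 other targets lower, and both offsets called 1 Bcl-2 family member or caspase higher and 1 lower. The median of all genes was 0.0169 with the length offset and 0.0200 with the GC content offset. The length offset called 1232 genes higher and 848 lower, 59.2% of them higher, against 48.1% in the edgeR fit without an offset. Without a filter on low counts 1142 genes were higher and 1232 lower.

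*Zmat3* also missed the threshold in limma-voom, with upper quartile normalization and without the filter (adjusted p between 0.0519 and 0.0620). Same-numbered CDD and ND brains correlated at 0.12, -0.28, 0.16 and 0.24 in their deviations from the group means. Brains of different number ranged from -0.29 to 0.21. With so few brains these values cannot decide whether the numbers pair them. A replicate block gave 842 genes higher and 970 lower and called 2 members higher and 2 lower, with *Zmat3* at 0.15 and an adjusted p of 0.0551 as the single call among the members that changed, and 6 in place of 4 other targets lower. Of 24 sets of 4 brains, for the targets, *Trp53* and *Mdm4*, 0 held a brain far from the other 3.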
